A study of Mus musculus with 60 samples.

Results

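The 5 mouse strains described here, P/J, DBA/2J, C58/J, I/LnJ and C57BR/cdJ, were those of 30 inbred strains whose cortex differed most between fluoxetine and plain drinking water. They account for 10 of the 60 arrays in the series, 5 from mice on fluoxetine and 5 from mice on water. The strains were picked on the readout itself: for each strain the root mean square of fluoxetine minus water was taken over 11886 expressed genes on the log2 scale, and the 5 highest were kept. Everything measured from these 10 arrays is therefore given as description, with no test, and tests were made only in the 25 other strains. Their 50 arrays entered the same ranking, so the 25 are the strains of smaller root mean square and not a neutral set. These arrays had no part in choosing the genes that moved in the 5 strains beyond the filter on low values and the choice of probe set, which used all 60 arrays.

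The study gave male mice of each inbred strain fluoxetine by mouth at 18 mg/kg per day for 21 days, or 0 mg/kg per day in the water group. All mice came from The Jackson Laboratory, were 10 to 11 weeks old per the labels, and were killed between 0900 and 1300 h. RNA from 3 mice of a strain and treatment was pooled and hybridised to 1 array, so each strain gave 1 water and 1 fluoxetine value per gene and the spread between mice was not measured. Fluoxetine is an antidepressant that blocks the serotonin transporter and so prolongs the action of serotonin released in the brain. Cortical neurons carry serotonin receptors but do not make the transmitter, which arrives in fibres from the raphe nuclei. In the 10 arrays the transporter gene Slc6a4 lay between 2.07 and 2.10 and the synthesis gene Tph2 between 2.07 and 2.08, at the floor of the scale, 2.07 log2, where a gene has no measurable level. Some of the genes named below fall into programmes that textbooks describe for brain tissue. Activity-dependent genes are switched on by neuronal firing, immediate early transcription factors first and secreted or synaptic proteins later. Reactive astrocytes, the response of these support cells to injury or inflammation, raise the filament gene Gfap and the surface receptor Cd44.

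The root mean square was 0.452 log2 in P/J, 0.349 in DBA/2J, 0.342 in C58/J, 0.309 in I/LnJ and 0.29 in C57BR/cdJ. The strain just outside the choice, BUB/BnJ, stood at 0.271, so the fifth strain was set apart from the next by a small step. The 25 other strains spanned 0.173 to 0.271 with a median of 0.202. Differences of at least 1 log2 in either direction were found for 417 genes in P/J (3.51% of those expressed), 209 in DBA/2J (1.76%), 204 in C58/J (1.72%), 176 in I/LnJ (1.48%) and 98 in C57BR/cdJ (0.824%), against 16 to 111 in the others. Higher values on fluoxetine were the more frequent direction at this size: 268 of 417 in P/J, 151 of 209 in DBA/2J, 144 of 204 in C58/J, 140 of 176 in I/LnJ and 71 of 98 in C57BR/cdJ. At the smaller size of 0.5 used below, 14.9% of genes differed in P/J (7.59% higher, 7.3% lower), 9.33% in DBA/2J (5.54% and 3.79%), 8.07% in C58/J (4.39% and 3.68%), 6.71% in I/LnJ (4.55% and 2.15%) and 5.83% in C57BR/cdJ (2.96% and 2.87%).

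**Figure D1:**
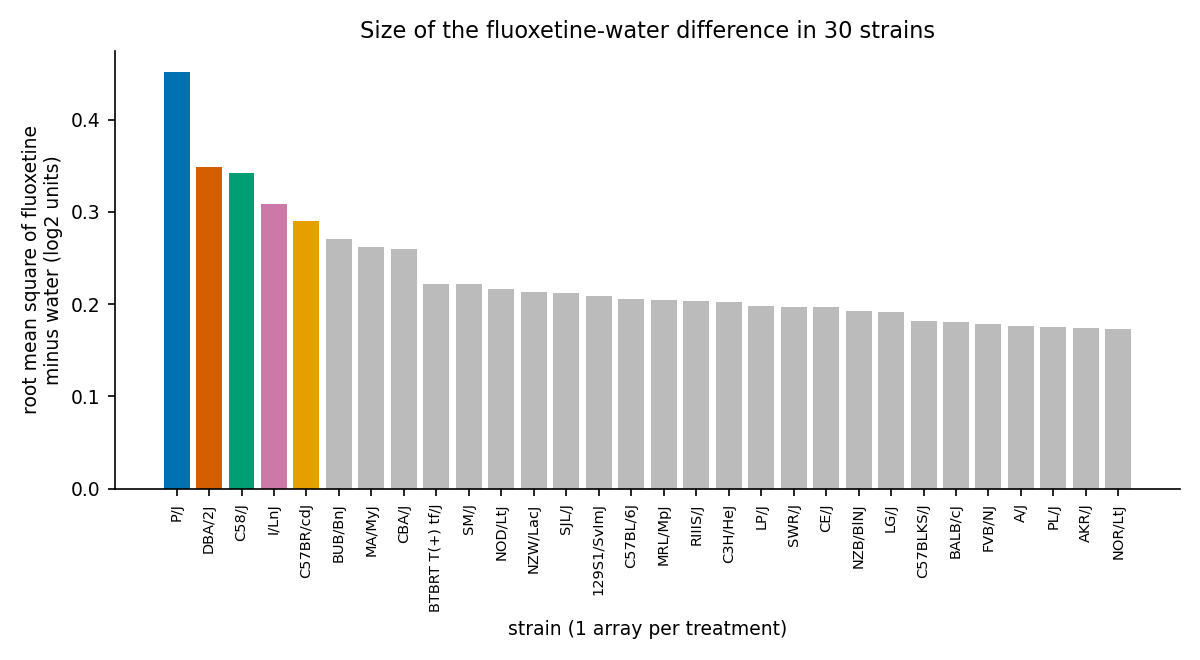
Bars give, for each of the 30 strains, the root mean square over 11886 expressed genes of fluoxetine minus water in log2 units, from 1 array per treatment. The 5 coloured bars run from 0.452 (P/J) to 0.29 (C57BR/cdJ), and the first grey bar is BUB/BnJ at 0.271.

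The arrays of the 5 strains were alike in brightness, with median intensities of 39.2 to 42.4 on water and 40.1 to 42.3 on fluoxetine. The fluoxetine arrays correlated less with the rest of the series: their median correlation with other arrays was 0.97 to 0.9789, below their 5 water partners at 0.9798 to 0.9827 and below the 50 arrays of the other strains at 0.9794 to 0.9849. Each fluoxetine array of the 5 nevertheless matched the water array of its own strain better than that of any other strain. The 3' to 5' signal difference of Actb, a sign of RNA integrity, was 1.3 to 1.55 on fluoxetine and 1.39 to 1.42 on water. Its part in the results was not tested.

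A gene was counted as moving in all 5 strains if fluoxetine minus water had the same sign and a size of at least 0.5 log2 in each. That rule found 62 genes higher on fluoxetine (0.522% of 11886) and 13 lower (0.109%), 75 in all (0.631%). At any size, 9.16% of genes were higher and 10.4% lower in all 5. Higher values of at least 0.5 were seen in exactly 1 of the 5 strains for 1011 genes, in 2 for 377, in 3 for 159, in 4 for 106 and in 5 for 62. Lower values of that size went from 1170 genes in 1 strain through 295, 113 and 47 to 13 in 5. The 62 genes had a median mean difference of 1.28 and the 13 genes one of -1.06, where the median over all expressed genes was -0.01. P/J showed the largest size for 33 of the 62 and 10 of the 13, and C57BR/cdJ the smallest for 31 and 8. The median over the 62 genes was 1.77 in P/J, 1.38 in C58/J, 1.30 in DBA/2J, 1.12 in I/LnJ and 0.88 in C57BR/cdJ, nearly the order of the root mean square.

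Absolute levels were compared next. For 50 of the 62 genes the 5 fluoxetine values all lay above the 5 water values, where 265 of all expressed genes (2.23%) did so. For 29 of the 62, all 5 fluoxetine arrays exceeded every one of the 30 water arrays in the series, against 92 of all genes (0.774%). The water arrays of the 5 strains were mostly unremarkable for these genes: of 310 water values, 8 lay below and 9 above the range of the 25 other strains. Among the 13 lower genes, 7 had no overlap between the groups (159 of all expressed genes, 1.34%) and 4 had all 5 fluoxetine arrays below all 30 water arrays (15 genes, 0.126%). Water values stood out more often for the lower genes: of 65, 9 lay above and 2 below the range of the 25 other strains. All 5 water arrays were inside that range for 6 of the 13 lower genes, against 49 of the 62 higher genes. These counts rest on the same arrays that chose the strains and describe them only.

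RefSeq promoter windows, from 250 bases before to 50 after each transcription start, were held in the GRCm38.p6 table for 48 of the 62 higher genes (72 windows) and 9 of the 13 lower genes (10 windows). They were searched on both strands for letters bound by factors of the programmes named above. A gene can hold several windows, so windows are not separate genes. The AP-1 letters TGANTCA, bound by Fos and Jun proteins, occurred in 9 of the 72 windows (12.5%), against 7.81% of all 32851 windows and 4.88% of those of expressed genes. By gene this was 7 of 48, against 571 of 9623 expressed genes. The full CRE, TGACGTCA, was in 0 of the 72 (1.79% of all windows, 2.97% of those of expressed genes), and its part TGACGT, which every full CRE also holds, in 7 windows of 6 genes (9.72%, against 7.51% and 11.2%). The STAT letters TTCNNNGAA were in 9 windows of 8 genes (12.5%, against 8.3% and 6.51%) and the E-box CACGTG in 6 windows of 6 genes (8.33%, against 7.15% and 9.75%). Among the 10 windows of the lower genes AP-1 and CRE letters were in 0, STAT letters in 1, that of Frzb, and the E-box in 1 (10%, near its 9.75% in expressed genes), that of the clock gene Ciart. It stood there 3 times, as it or more often did in 0.0883% of all windows and 0.128% of those of expressed genes. Such matches are letters, not measured binding. The 200 bases before the start are shown for Ciart (chr3:95882229-95882428, minus strand), for Tmem40, the gene of largest mean difference with an AP-1 match (chr6:115762467-115762666, minus strand), and for Met, which holds AP-1 and E-box letters together (chr6:17463757-17463956, plus strand). Capitals mark AP-1 letters in Tmem40, E-boxes in Ciart and both in Met, where the E-box comes first.
Ciart: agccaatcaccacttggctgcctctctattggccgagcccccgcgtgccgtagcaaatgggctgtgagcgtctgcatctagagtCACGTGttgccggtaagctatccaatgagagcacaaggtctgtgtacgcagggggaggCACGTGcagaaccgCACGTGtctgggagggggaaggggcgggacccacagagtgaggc
Tmem40: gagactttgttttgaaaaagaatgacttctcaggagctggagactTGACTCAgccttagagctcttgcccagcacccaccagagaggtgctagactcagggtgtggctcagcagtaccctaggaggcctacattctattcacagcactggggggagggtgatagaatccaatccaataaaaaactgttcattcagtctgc
Met: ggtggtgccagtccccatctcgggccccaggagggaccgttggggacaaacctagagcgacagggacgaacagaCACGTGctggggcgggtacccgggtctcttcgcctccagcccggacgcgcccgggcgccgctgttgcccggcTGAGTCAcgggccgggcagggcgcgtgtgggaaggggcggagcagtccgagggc

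Some of the 62 genes were nearly silent on water. Rgs13, a regulator that shortens G protein signalling, read 2.07, 2.36, 2.07, 2.07 and 2.36 log2 on water in P/J, DBA/2J, C58/J, I/LnJ and C57BR/cdJ, and 10.21, 6.60, 8.74, 8.61 and 5.54 on fluoxetine. Its water values were at or next to the floor, so no fold is given, and all 5 fluoxetine arrays lay above all 30 water arrays. Dpm3, a subunit of the enzyme that makes dolichol-phosphate-mannose for glycosylation, read 2.47, 2.38, 2.43, 2.34 and 4.42 on water and 8.65, 8.90, 7.82, 7.45 and 7.93 on fluoxetine. Here too the groups did not overlap, and C57BR/cdJ had the highest water level and the smallest difference, 3.51. Each gene had a single probe set, so no other probe set bears on it. Neither pattern was exclusive to the 5: Rgs13 was higher by at least 1 in 6 of the 25 other strains and Dpm3 in 4, among them MA/MyJ with 4.67.

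Late activity-dependent genes were the first group to describe. Nptx2, neuronal pentraxin 2, which gathers AMPA receptors at synapses, read 8.75, 9.18, 9.85, 9.48 and 9.91 on water in the same strain order and 11.89, 11.36, 12.31, 11.61 and 10.74 on fluoxetine. All 5 fluoxetine arrays were above all 30 water arrays, the mean difference was 2.15 ± 0.838 (SD, n = 5), a 4.44-fold level, and C57BR/cdJ again had the smallest difference, 0.83. Bdnf, the neurotrophin of cortical synapses, read 9.69, 10.09, 9.90, 10.15 and 9.67 on water and 12.22, 11.93, 11.95, 11.08 and 10.62 on fluoxetine. Its mean difference was 1.66 ± 0.704 and no water array of the series reached any of these 5 values. Ptgs2, the inducible cyclooxygenase that makes prostaglandin precursors, went from 8.55 to 11.66 in P/J, 7.36 to 8.52 in DBA/2J, 9.24 to 11.48 in C58/J, 8.93 to 9.76 in I/LnJ and 8.55 to 9.75 in C57BR/cdJ. The 2 groups overlapped because DBA/2J was low on both treatments, although the difference was positive in every strain, and its mean was 1.71 ± 0.944. Ptger3, a receptor for prostaglandin E2, was also in the set of 62, with differences of 1.03 to 1.72.

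A list of 25 late activity-induced genes put these in context. Of its 24 expressed members, 6 were higher by at least 0.5 in all 5 strains, where 0.522% of all genes were. These were Bdnf, Nptx2, Ptgs2, Rgs2, Inhba and Cdkn1a. At any size 16 of the 24 were positive in all 5, where 9.16% of all genes were. The list median of the mean difference was 0.63, with medians of 0.73 in P/J, 0.74 in DBA/2J, 0.60 in C58/J, 0.22 in I/LnJ and 0.66 in C57BR/cdJ. Rgs2, another brake on G protein signalling, read 12.38, 12.70, 12.51, 12.35 and 12.41 on water and 14.18, 13.42, 13.98, 13.40 and 12.99 on fluoxetine. Members just under the size rule included Gadd45b, a stress and demethylation factor, with differences of 1.08, 1.57, 1.61, 0.41 and 1.22. The granin precursors, which yield secreted peptides, were higher by smaller amounts: Scg2 by 0.73, 0.98, 0.66, 0.69 and 0.49, and Vgf by 0.72, 0.53, 0.64, 0.22 and 0.47. For both of them all 5 fluoxetine arrays exceeded all 30 water arrays. The neuropeptide gene Npy, on another list, behaved likewise, with 12.47, 12.14, 12.23, 12.24 and 12.43 on water and 13.11, 13.02, 13.03, 12.76 and 12.66 on fluoxetine.

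Immediate early genes gave a different picture from the late genes. Of 19 expressed members of that list, 2 were higher by at least 0.5 in all 5 strains (0.522% of all genes were), Fosb and Jun. The list median was 0.04. Fosb, a Fos-family transcription factor whose products accumulate with repeated stimulation, read 4.75, 4.75, 4.75, 4.87 and 4.75 on water and 6.89, 7.47, 6.43, 6.16 and 5.66 on fluoxetine. Jun, its partner in AP-1, read 10.11, 9.70, 10.37, 10.28 and 10.19 on water and 10.86, 10.84, 11.22, 11.44 and 10.93 on fluoxetine, beyond all 30 water arrays in each strain. Fos itself was uneven, with differences of 1.16, -0.33, 2.20, 0.46 and 1.35, and its fluoxetine values stayed inside the range of the water arrays. Egr1 differed by 0.14, -0.42, 0.49, -0.06 and 0.0037, and Arc, a synaptic activity gene, by 0.04, 0.29, 0.96, 0.49 and 0.06. Npas4, which responds to calcium entry, was lower in DBA/2J by -2.11 and higher in I/LnJ by 0.96. The nuclear receptor genes Nr4a1, Nr4a2 and Nr4a3 had negative mean differences of -0.40, -0.60 and -0.38.

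**Figure D2:**
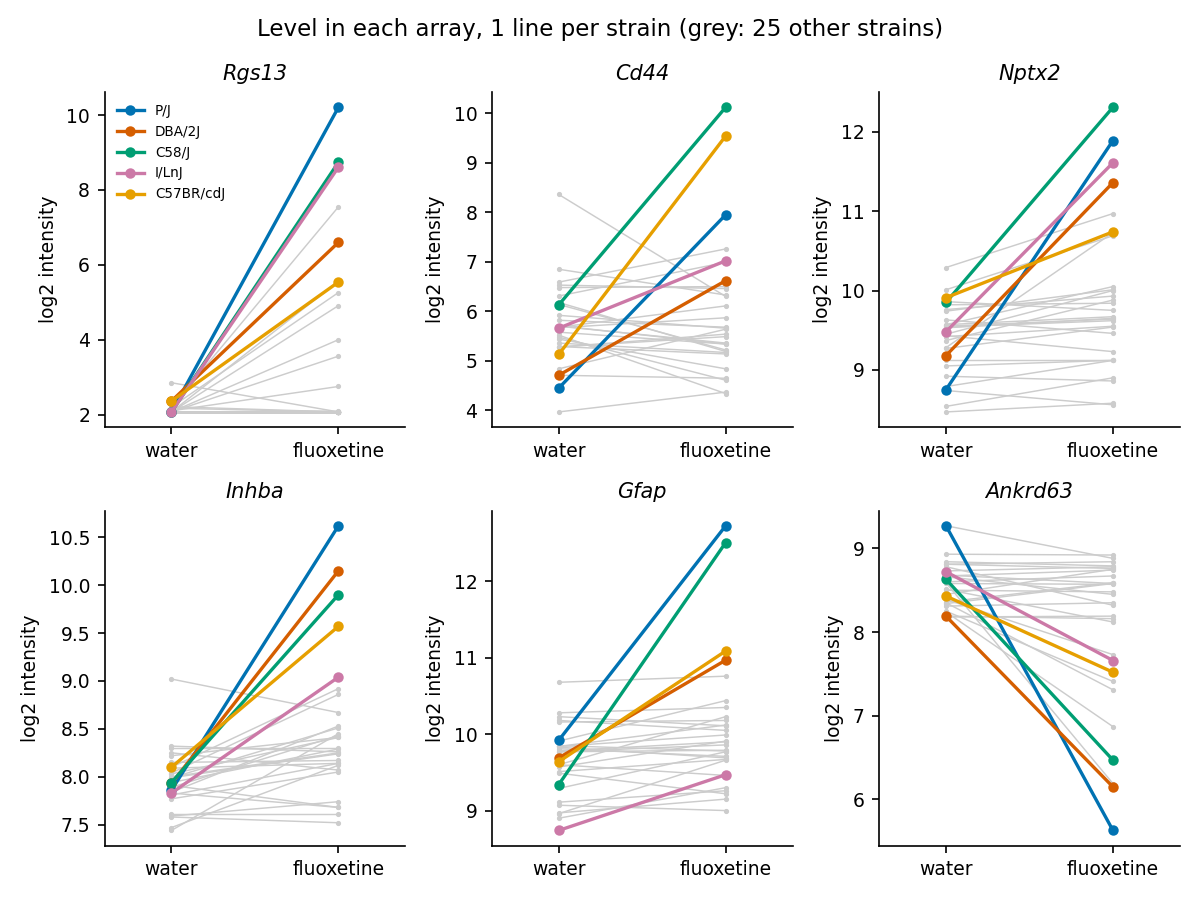
Each panel plots log2 intensity on water (left) and fluoxetine (right) for 1 gene, with a coloured line for each of the 5 strains and grey lines for the 25 others, 1 array per point. Rgs13 starts at 2.07 to 2.36 and ends at 5.54 to 10.21 in the coloured strains, and Ankrd63 ends at 5.63 to 7.66, below all water points.

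Secreted ligands and genes of their signalling are described together next, a grouping made after their values were seen. Tgfb1, transforming growth factor beta, read 6.05, 5.72, 5.89, 5.77 and 5.82 on water and 8.62, 7.65, 7.99, 6.86 and 7.88 on fluoxetine, with a mean difference of 1.95 ± 0.538 (SD, n = 5). Inhba, which encodes the subunit of activin A, read 7.86, 7.93, 7.94, 7.83 and 8.10 on water and 10.62, 10.15, 9.90, 9.04 and 9.57 on fluoxetine, with no overlap and with every fluoxetine value above all 30 water arrays. The activin-binding protein gene Fst was higher by 0.57 to 1.81, the coactivator gene Tgfb1i1 by 0.63 to 1.67, and Klf10, a transcription factor induced by this ligand family, by 0.64 to 1.94. Averaging all probe sets of a gene gave mean differences of 0.98 for Tgfb1 and 0.96 for Inhba, but the second probe set of each lay at the floor, at 2.08 and 2.07, where no difference can show.

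Of 11 expressed reactive astrocyte genes, 8 were higher in all 5 strains (9.16% of all genes were), 3 of them by at least 0.5 in each (0.522%). Gfap read 9.92, 9.69, 9.34, 8.74 and 9.64 on water and 12.73, 10.97, 12.51, 9.47 and 11.09 on fluoxetine, and its 2 other probe sets had mean differences of 1.85 and 2.44. I/LnJ stood lowest on both treatments, so the groups overlapped, while the other 4 fluoxetine arrays exceeded all 30 water arrays. Cd44, the hyaluronan receptor, read 4.45, 4.71, 6.13, 5.66 and 5.13 on water and 7.95, 6.62, 10.12, 7.02 and 9.54 on fluoxetine. Its mean difference was 3.04 ± 1.33 (SD, n = 5), an 8.2-fold level, and 1.70 when its 4 probe sets were averaged, of which 2 lay near the floor at 2.07 and 2.11. Aspg, an asparaginase gene of the same list, was the third member past the rule, at 3.56, 3.45, 2.41, 3.05 and 0.85. The sphingosine kinase gene Sphk1 went against the list in P/J, at -0.73, and differed by 0.25 to 1.92 elsewhere. The list median was 1.39, the highest of the 30 lists with at least 3 expressed genes, and by strain it was 1.07, 0.69, 2.25, 0.94 and 1.25. In the 25 other strains it was -0.08.

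C58/J and C57BR/cdJ had the largest differences for several of these genes. Socs3, the feedback inhibitor of cytokine signalling through STAT3, differed by 0.92 in P/J, -0.15 in DBA/2J, 3.08 in C58/J, 0.91 in I/LnJ and 4.24 in C57BR/cdJ. The sphingosine receptor gene S1pr3 was also highest in that pair, with 0.24, -0.32, 1.84, -0.07 and 1.25, and the TWEAK receptor gene Tnfrsf12a with -0.19, 0.75, 2.08, -0.20 and 2.31. In these 3 genes the C58/J and C57BR/cdJ fluoxetine arrays were above the 30 water arrays. Cd44 was likewise highest in the same pair, at 10.12 and 9.54 on fluoxetine. Other genes did not keep the pattern. Serpina3n, an acute-phase protease inhibitor, differed by 3.76 in C58/J and 0.38 in C57BR/cdJ. Aspg had its smallest differences in that pair, 2.41 and 0.85, against 3.05 to 3.56 in the other strains. Gfap differed by 3.17 in C58/J but by 1.45 in C57BR/cdJ, less than the 2.81 of P/J. These genes were picked after their values were seen. For markers of astrocytes in general, the 12 genes of their list had a median of -0.02, and the summed intensity was 99346 to 102749 on water and 91719 to 104990 on fluoxetine.

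The remaining higher genes spanned signalling, matrix, metabolism and immunity. Among signalling genes, Pik3r6, a regulatory subunit of the phosphoinositide 3-kinase used by G protein-coupled receptors, read 5.37, 6.28, 5.68, 5.58 and 6.09 on water and 9.66, 8.93, 7.45, 7.01 and 7.82 on fluoxetine. Esr1, oestrogen receptor alpha, read 5.54, 4.89, 6.21, 4.89 and 5.25 on water and 8.78, 7.49, 8.04, 7.42 and 6.42 on fluoxetine, every value above all 30 water arrays, with a mean difference of 2.27, or 1.17 over its 3 probe sets, of which 1 lay at the floor. Doc2b, a calcium sensor for transmitter release, was higher by 3.13, 2.05, 1.11, 2.50 and 1.31, and Tmem40, a membrane protein gene with very unequal water levels of 2.20 to 8.08, by 2.08, 1.37, 2.99, 2.77 and 1.44. Efcab6, which encodes a calcium-binding protein, gave 2.76, 2.47, 1.76, 1.89 and 1.14, and the arylsulfatase gene Arsj 3.38, 1.85, 1.61, 1.21 and 1.56. These 6 genes shared neither a water level nor a strain order, beyond P/J having the largest difference in all of them except Tmem40.

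The other 39 of the 62 are named here by role, with the range of their mean differences. Cell-cycle and stress genes were Cdkn1a, the p21 inhibitor (1.48), Gadd45a (1.01) and Sertad1 (1.14). Matrix, protease and surface genes were Col3a1, a fibrillar collagen (1.31), Adam19, Prss23, Ecel1, Medag, Met, the hepatocyte growth factor receptor (0.88), the adhesion gene Pcdh8 (0.81), St8sia2, which adds polysialic acid to neural cell adhesion molecule (2.06), and Ly6g6e, Lhfp, Serinc2 and Rhbdl3. Immune genes were Blnk, a B-cell linker (1.68), Il12a, an interleukin-12 subunit (1.70), Cd1d1, a lipid-presenting molecule (2.52), and Ctla2a, a protease inhibitor (1.17). Metabolic and transport genes were Hk2, hexokinase 2 (0.98), Aldh1l2, Cyb5r1, Car12, a carbonic anhydrase, Slc5a3, the inositol transporter (0.77), and Nkain1. Signal transduction genes were Ppp1r1b, the dopamine-regulated phosphatase inhibitor DARPP-32 (1.29), Itpkc, an inositol trisphosphate kinase, Necab2, Pawr and Strip2. The cytoskeletal and regulatory genes Cotl1, Aff1, Smyd4, Fcor, Niban2, Fhad1, Tmem117, Tunar and C130075A20Rik completed the set. Within it, Cotl1 had the smallest mean difference, 0.69, and 34 of the 62 genes had 52 further probe sets, of which 32 kept the sign in all 5 strains.

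**Figure D3:**
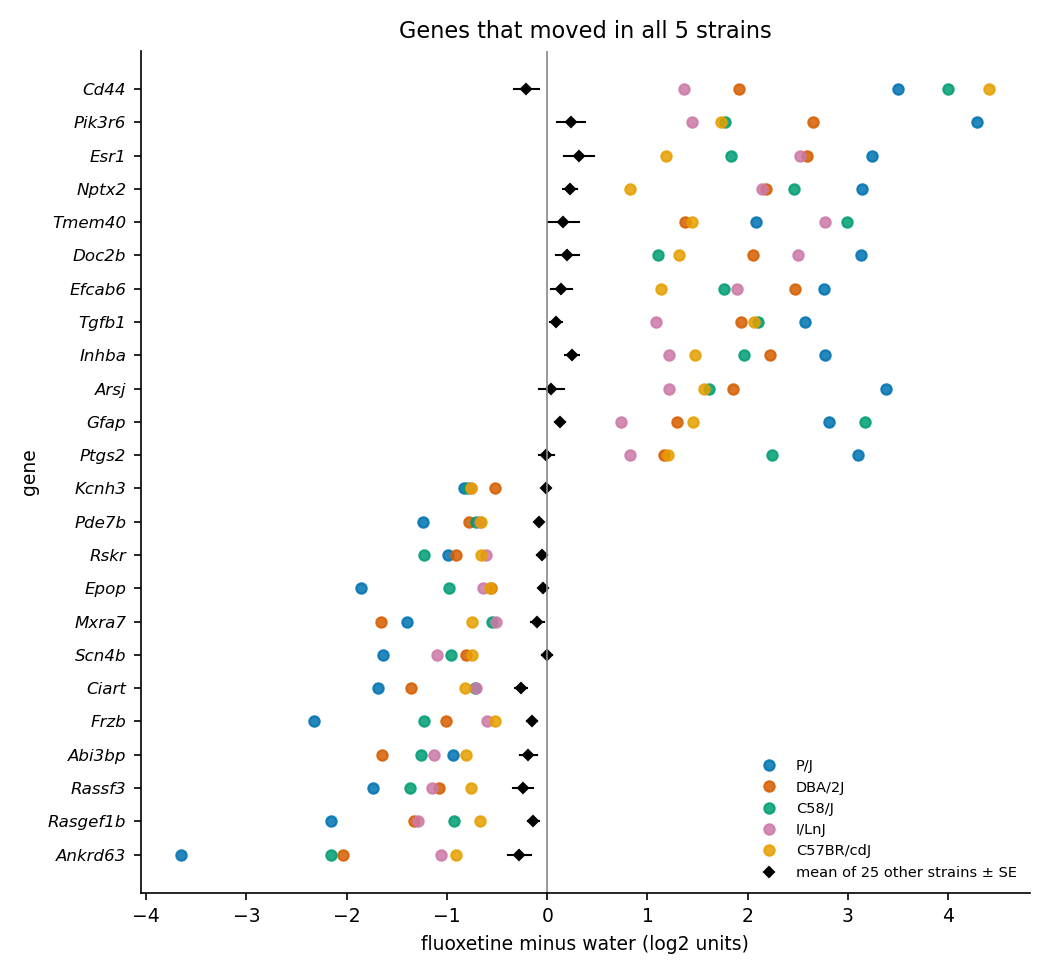
Coloured points are fluoxetine minus water in log2 units in each of the 5 strains for the 12 higher and 12 lower genes with the largest mean difference and a mean level of at least 6. Black diamonds are the mean of the 25 other strains ± SE from the limma fit. For Cd44 the coloured points run from 1.36 to 4.41 and the diamond is at -0.21.

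The lower genes were fewer and were led by Ankrd63, an ankyrin-repeat protein gene. It read 9.27, 8.19, 8.63, 8.72 and 8.43 on water and 5.63, 6.15, 6.47, 7.66 and 7.52 on fluoxetine, below all 30 water arrays in each strain, with a mean difference of -1.96 ± 1.1 (SD, n = 5). Rasgef1b, an exchange factor for Ras-family proteins, read 11.14, 10.97, 11.27, 11.25 and 11.14 on water and 8.98, 9.64, 10.34, 9.96 and 10.47 on fluoxetine, also below all 30. Epop, a chromatin protein gene, and Kcnh3, a voltage-gated potassium channel gene, shared that property at smaller sizes, with means of -0.92 and -0.73. Kcnh3 had the smallest SD of the 13 lower genes, 0.124, with differences of -0.83, -0.52, -0.79, -0.76 and -0.76. Scn4b, a sodium channel beta subunit, differed by -1.64, -0.81, -0.96, -1.10 and -0.75, and Pde7b, a cyclic AMP phosphodiesterase, by -1.24, -0.78, -0.71, -0.67 and -0.66. Mean differences were -1.22 for Rassf3, -1.16 for Abi3bp, a matrix protein gene, -1.14 for Frzb, a secreted Wnt inhibitor, -0.97 for Mxra7 and -0.88 for Rskr, a kinase-like gene. Sptssb, a subunit of the first enzyme of sphingolipid synthesis, was the 13th gene, at -1.32. Averaging probe sets lowered the size for Rassf3 (-0.83), Pde7b (-0.39) and Kcnh3 (-0.38). For Pde7b the other probe sets lay near the floor, at 2.59 and 2.49. For Rassf3 one lay there, at 2.28, and another at 8.04 differed by -1.19. The probe sets of Kcnh3 disagreed: one at a mean level of 9.47 differed by -0.74, and another at 7.33 by -0.02.

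Clock genes were lower as a group without most of them reaching the size rule. Ciart, a repressor in the circadian loop whose promoter is printed above, read 8.86, 9.07, 8.24, 9.29 and 8.67 on water and 7.18, 7.71, 7.52, 8.58 and 7.85 on fluoxetine, with overlap because I/LnJ stayed high. Of 18 expressed clock genes, 1 was lower by at least 0.5 in all 5 strains (0.109% of all genes were). At any size, 8 were negative in all 5 (10.4% of all genes) and 2 were positive in all 5 (9.16%). The list median was -0.27, against -0.0069 in the 25 other strains. The output factor Dbp differed by -1.38, -0.99, -0.76, -0.44 and -0.48, and its relative Hlf by -1.17, -0.56, -0.71, -0.14 and -0.47. Nr1d1, the repressor REV-ERB alpha, differed by -1.21, -0.44, -0.13, -0.39 and -0.64. The period genes were mixed: Per1 differed by -0.67, -0.36, -0.46, 0.0084 and -0.28 and Per2 by 0.43, -0.10, 0.54, -0.07 and -0.19.

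The serotonin list, which holds receptors, enzymes that make or degrade the transmitter and the receptor adaptor S100a10, had a median of -0.12 over 11 expressed genes. Htr1a, the inhibitory receptor that also limits serotonin neurons, read 8.07, 8.08, 7.67, 8.41 and 7.84 on water and 6.38, 7.52, 7.21, 8.05 and 7.77 on fluoxetine, a difference that went from -1.69 in P/J to -0.07 in C57BR/cdJ. Htr7, a receptor coupled to cyclic AMP, differed by -1.05, -0.70, -0.51, -0.69 and -0.12. Neither passed the size rule, because of C57BR/cdJ and, for Htr1a, also C58/J and I/LnJ. Htr2c differed by 0.50, 0.01, 0.11, -0.18 and -0.24, and Maoa, which degrades serotonin, by 0.20, -0.13, 0.34, 0.04 and 0.0068. Among 9 expressed GABA-A receptor subunits, 5 were negative in all 5 strains (10.4% of all genes were). Gabrd, the subunit of extrasynaptic receptors, was the largest, from 10.15, 9.82, 9.71, 9.73 and 9.74 on water to 8.50, 9.05, 8.70, 8.82 and 9.28 on fluoxetine, with no overlap.

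Glial lists differed too, and in whole-tissue RNA fewer cells of a type and less RNA per cell cannot be told apart. Of 11 expressed oligodendrocyte markers out of 12, 9 were negative in all 5 strains, where 10.4% of all genes were. The markers had a list median of -0.42 (P/J -0.75, DBA/2J -0.14, C58/J -0.70, I/LnJ -0.29, C57BR/cdJ -0.31). Their summed intensity was 35185 to 55906 on water and 24491 to 47267 on fluoxetine. The same list was lower in the 25 other strains for 11 of 11 genes (51.3% of all genes were lower), with a median of -0.16. Of the list, 7 genes had an unadjusted limma p under 0.05 in that direction (3.55% of all genes did), though 0 passed after adjustment. Markers of 1 cell type in the same arrays are not independent of each other. Opalin, a myelin membrane gene, differed by -1.33, -0.46, -1.13, -0.43 and -0.40, and Mal, another myelin gene, by -1.16, -0.07, -0.80, -0.36 and -0.40. Of 12 expressed microglia markers, 3 were positive in all 5, where 9.16% of all genes were. The microglia markers had a list median of 0.31, and medians of 0.60 in P/J, 0.64 in DBA/2J and -0.07 in C57BR/cdJ. Their summed intensity was 10590 to 15662 on water and 11793 to 25230 on fluoxetine. The complement gene C1qb was higher by 1.23, 0.38, 0.72, 0.23 and 0.84, whereas P2ry12, which marks resting microglia, differed by 0.25, -0.07, -0.12, -0.55 and -0.13. Apart from the reactive astrocyte, late activity-induced, clock, oligodendrocyte and microglia lists, the median of the other 25 lay between -0.18 and 0.21, but single strains reached -0.94 (olfactory bulb list, P/J) and 0.86 (meninges list, I/LnJ), described next. Cholesterol synthesis genes had medians of 0.32 in P/J, 0.11 in DBA/2J, 0.16 in C58/J, -0.10 in I/LnJ and -0.06 in C57BR/cdJ. The 10 pan-neuronal genes stood at -0.02, with summed intensities of 144779 to 167218 on water and 141202 to 161348 on fluoxetine. The part of cell makeup in the differences was not tested.

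**Figure D4:**
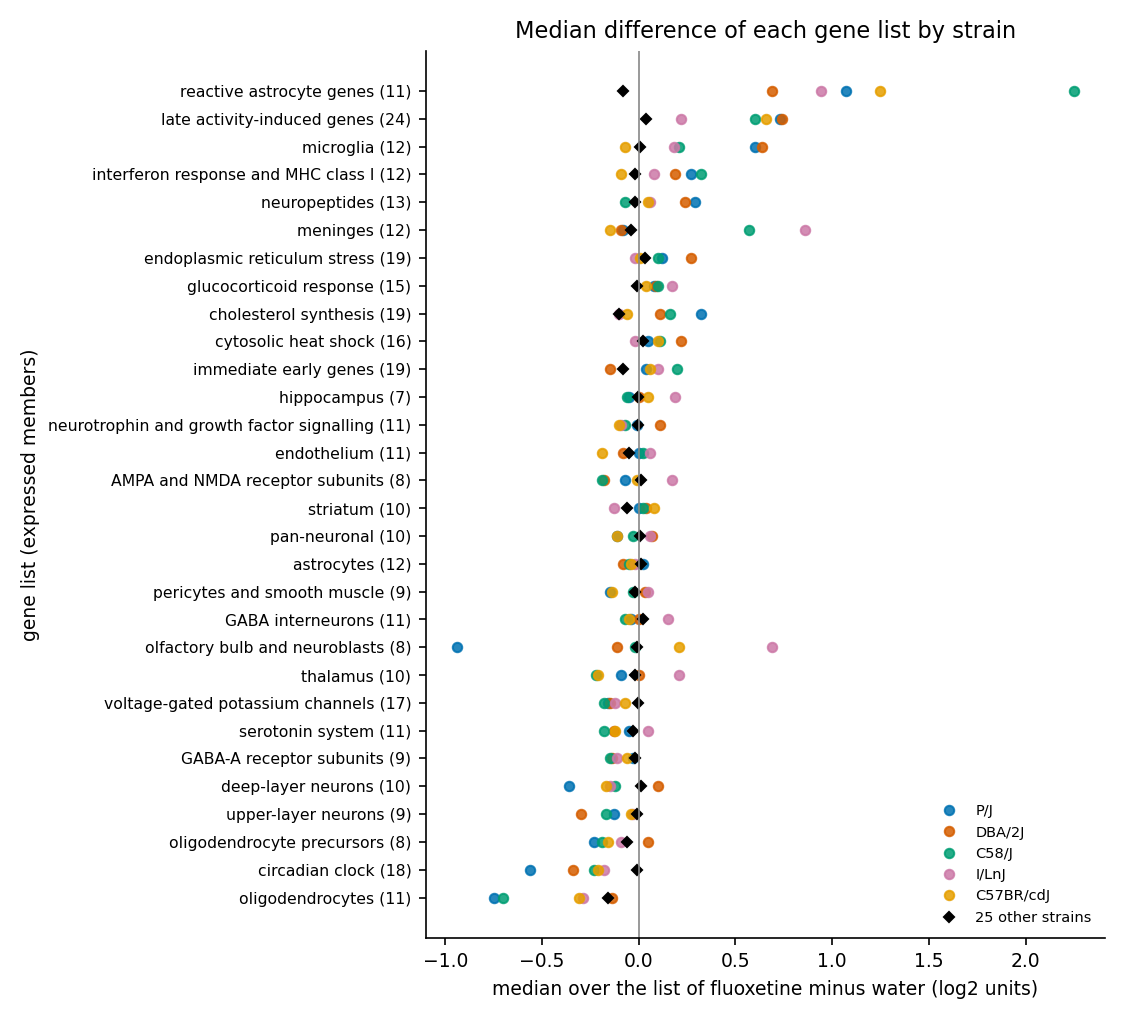
Each row is a gene list with its number of expressed members, coloured points are the list's median of fluoxetine minus water in log2 units in each of the 5 strains, and black diamonds are the median over the list of the mean difference in the 25 other strains. Reactive astrocyte genes lie at 0.69 to 2.25, late activity-induced genes at 0.22 to 0.74 and oligodendrocyte genes at -0.75 to -0.14 in the 5 strains.

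Markers of neighbouring tissue differed between the 2 arrays of some of the 5 strains. Cdhr1, a cadherin of olfactory bulb projection neurons, read 10.94 on water and 9.01 on fluoxetine in P/J, and 4.23 on water and 9.86 on fluoxetine in I/LnJ, where the other 3 strains lay between 3.64 and 4.72 on both treatments. The 50 arrays of the 25 strains ran from 3.20 to 9.12, and 129S1/SvImJ, BTBRT T(+) tf/J, LP/J and NZB/BlNJ were high on both treatments, so a high Cdhr1 level was not particular to P/J and I/LnJ. The calcium buffer gene Calb2 read 10.89 and 6.83 in P/J and 7.70 and 10.79 in I/LnJ, against 6.65 to 8.76 in the 50 arrays of the other strains. Doc2g, a relative of Doc2b, read 9.98 and 4.58 in P/J and 4.58 and 6.32 in I/LnJ, against 4.43 to 4.99. In total, 9 genes were lower by at least 1 in P/J and higher by at least 1 in I/LnJ, and 2 did the reverse (0.0925% of all), a tally made after the values were seen, where other pairs of the 5 had 0 to 3 such genes. The list of olfactory bulb and neuroblast genes had a median of -0.94 in P/J and 0.69 in I/LnJ. Its summed intensity was 8972 on water and 4912 on fluoxetine in P/J, and 4734 and 7641 in I/LnJ. Of its 12 genes, Sp8, Eomes, Th and Tbx21 failed the filter of 6 arrays but differed in the same way in these strains. Eomes, a transcription factor, read 8.66 on water and 2.07 on fluoxetine in P/J, 2.08 and 8.02 in I/LnJ, and 2.07 in the other 6 arrays. Th, the enzyme that starts dopamine synthesis, read 7.09 and 2.07 in P/J and 2.15 and 5.05 in I/LnJ. Meninges markers were higher on fluoxetine in I/LnJ for 12 of 12 genes, with a median of 0.86. Of these, 10 were higher by at least 0.5, as were 4.55% of all genes in I/LnJ. In C58/J 9 of the 12 markers were higher, with a median of 0.57, where the other 3 strains had medians of -0.15 to -0.08. Their summed intensity was 2681 on water and 4642 on fluoxetine in I/LnJ and 2634 and 4067 in C58/J, against 1853 to 7104 in the water arrays of the 25 strains. Col3a1, of the 62, is on that list and differed most in C58/J, by 2.96. Ttr, the choroid plexus transport protein, read 15.09 on water and 6.74 on fluoxetine in C57BR/cdJ, a difference of -8.35, where the 25 other water arrays lay between 5.19 and 10.00. It was the single expressed gene of the 11 choroid plexus markers on the array, whose summed intensity in that array was 35024, against 94 to 1082 in the 25 other water arrays. The sum restates Ttr, since the other markers reached at most 4.95 log2 (Kl) in the 10 arrays. Of these genes Col3a1 alone is among the 75, and their part in the strains' ranks was not tested. Without the 75 genes the root mean squares were 0.414, 0.318, 0.31, 0.282 and 0.273, and BUB/BnJ was next at 0.271.

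Genes that differed in 1 of the 5 strains and not in the other 4 were rare under a strict rule. With a size of at least 1 in 1 strain and under 0.3 in the other 4, 28 genes qualified (0.236%), 14 higher and 14 lower, divided as 6 in P/J, 6 in DBA/2J, 4 in C58/J, 7 in I/LnJ and 5 in C57BR/cdJ. They made up 1.44% to 5.1% of the genes with a size of at least 1 in their strain. By contrast, 80.1% to 91.2% of a strain's genes of that size also differed by at least 0.5 in the same direction in at least 1 other strain. The same sign in all 5 was found for 50% to 64.2%. Of all expressed genes, 9.16% were higher and 10.4% lower in all 5, and 8787 of 11886 had a size of at least 0.5 in none of the 5. In P/J the named genes were Gmnn, the replication-licensing inhibitor geminin, from 5.37 to 6.67, Fam241a from 6.31 to 7.48 and the sulfotransferase gene Chst8 from 8.06 to 6.68. In DBA/2J they were Pdxdc1 (3.75 to 4.97), Xaf1, an apoptosis regulator (4.79 to 5.98), Hypk (6.99 to 5.66) and Psg23 (6.74 to 5.54). Arhgap11a was alone in C58/J, from 6.13 to 7.26. I/LnJ had Ints7, an Integrator subunit (6.66 to 8.13), Amacr, a racemase of branched fatty acids (6.39 to 7.77), the adhesion gene Kirrel3 (8.12 to 9.40), Cep128 (6.19 to 4.48) and Fosl2, a Fos relative (9.05 to 8.02). C57BR/cdJ had Spry4, an inhibitor of growth factor signalling (5.63 to 6.89), and Ghr, the growth hormone receptor (7.62 to 6.34). The other 13 of the 28, with mean levels under 6, were 5033417F24Rik, Stard5 and Wnk4 in P/J, Fbn2 and Ocel1 in DBA/2J, Cped1, Heph and Olfml2b in C58/J, Cercam and Esyt3 in I/LnJ, and Cox7c, Lmnb1 and Stap2 in C57BR/cdJ. Outside the 5 strains, 1 of the 25 differed by at least 1 for each of Xaf1 (1.92), Amacr (-1.31), Spry4 (1.03), Lmnb1 (1.25) and 5033417F24Rik (-1.02).

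Several of these genes had a level on water that was unusual or at the low end of the series. Ints7 was lower in both I/LnJ arrays than in any of the 58 other arrays, which lay between 9.02 and 10.08. Pdxdc1 was at 3.75 and 4.97 in DBA/2J, where the 58 others ran from 3.75 to 10.33 with a median of 10.01. Xaf1 on water in DBA/2J, at 4.79, equalled the lowest of the others, whose median was 7.42. Amacr in I/LnJ, Fam241a in P/J and Spry4 in C57BR/cdJ each had a water value outside the range of the 58 others and a fluoxetine value inside it. For Ghr, Chst8, Psg23 and Arhgap11a the fluoxetine value was the one outside. Opposite directions were rarer still: 7 genes (0.0589%) were higher by at least 0.5 in 2 or more of the 5 strains and lower by as much in 2 or more. Of those, Gng4, a G protein gamma subunit, differed by -1.74, -0.66, -0.32, 1.29 and 0.58, Vmn2r29, a vomeronasal receptor gene, by -0.92, 0.67, 1.10, -0.88 and 0.81, and Cyp4f15, a fatty acid hydroxylase gene, by 0.57, -0.74, -0.73, 0.74 and -0.18.

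Across the 11886 genes, the difference of 1 strain could be set against that of another, strains sharing no array. The 10 pairs among the 5 strains had correlations of 0.2 to 0.582 with a median of 0.452, and 0.0863 to 0.504 with a median of 0.367 when the 75 genes were left out. The 300 pairs among the 25 other strains ran from -0.342 to 0.382 with a median of 0.018. The 125 pairs of 1 strain from each set ran from -0.234 to 0.37. Genes are not independent replicates, so these values are a description.

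Some genes outside the 75 were picked from earlier results of these data. Spata13 differed by 1.87, 1.14, 1.26, 1.13 and 0.39, and the heat shock gene Hspa1b by 0.41, 1.58, 0.93, 0.92 and 0.78. Gnb4, a G protein beta subunit, differed by -0.66, -0.30, -0.38, -0.21 and -0.23, Tfrc, the transferrin receptor, by -0.21, -0.10, -0.33, -0.31 and -0.13, and the neurofilament gene Nefh by 0.18, 0.03, 0.30, 0.0035 and 0.04. The 2 groups did not overlap for Spata13 and Gnb4 and overlapped for the other 3.

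The 75 genes were then tested where they had not been chosen, in the 25 other strains. The limma fit with strain as a block called 2 of 11886 genes at an adjusted p of 0.05 (0.0168%), and neither was among the 75. Of the 62 higher genes, 51 (82.3%) were also higher on fluoxetine in the 25 strains, where 48.7% of all genes were, and 16 (25.8%) had an unadjusted p under 0.05 in that direction, where 3.14% of all genes did. All 13 lower genes were lower there (51.3% of all genes), and 6 (46.2%) had an unadjusted p under 0.05 in that direction (3.55% of all). The sizes were small: the median difference was 0.09 for the 62 genes and -0.10 for the 13. By the rule the 25 were the strains of smaller root mean square, so small sizes were partly set in advance. None of the 75 passed the adjusted threshold. Of the 62, 6 (Cd1d1, Dpm3, Ecel1, Ly6g6e, Rgs13 and St8sia2) reached the 6 arrays of the filter only with fluoxetine arrays. Without them 46 of 56 (82.1%) were higher and 15 (26.8%) had an unadjusted p under 0.05, Rgs13 being the 1 dropped. The lowest adjusted p was 0.386 among the higher genes, for Inhba, at 0.25 ± 0.0687 (SE), and Adam19, at 0.15. Among the lower genes it was 0.153, for Ciart, at -0.26 ± 0.0586 (SE), lower in 19 of 25 strains. Nptx2 was higher in 19 of 25 strains by 0.23 ± 0.0683 (SE), with an adjusted p of 0.427. Bdnf, at 0.06 ± 0.0621, Ptgs2, at -0.01 ± 0.0756, and Cd44, at -0.21 ± 0.124, had adjusted p-values of 0.91, 0.985 and 0.792, so no difference passed the threshold for them in the other strains.

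The mean over the 25 strains hid unequal members. BTBRT T(+) tf/J had 31 of the 62 genes higher by at least 0.5, MA/MyJ 30, C57BL/6J 24, SM/J 18 and C57BLKS/J 14, where the median of the 25 was 5. The first 4 of these strains also had the highest correlations with the mean difference of the 5, namely 0.382 for MA/MyJ, 0.359 for BTBRT T(+) tf/J, 0.32 for SM/J and 0.254 for C57BL/6J. BUB/BnJ, the next strain by root mean square, had 7. In the levels Rgs13 reached on fluoxetine, 7.55 was the highest of the 25. The 2 genes called in the 25 strains were Fdft1, squalene synthase, at -0.13 ± 0.02 (SE) with an adjusted p of 0.0122, and Cyp51, a sterol demethylase, at -0.12 ± 0.0214 (SE) with an adjusted p of 0.0461, each lower in 22 of 25. In the 5 strains Fdft1 differed by 0.43, 0.08, 0.13, -0.06 and -0.06, and Cyp51 by 0.40, 0.09, 0.16, -0.27 and -0.0038. The difference between the 2 sets of strains was not tested, since the 5 were chosen on these arrays.

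**Figure D5:**
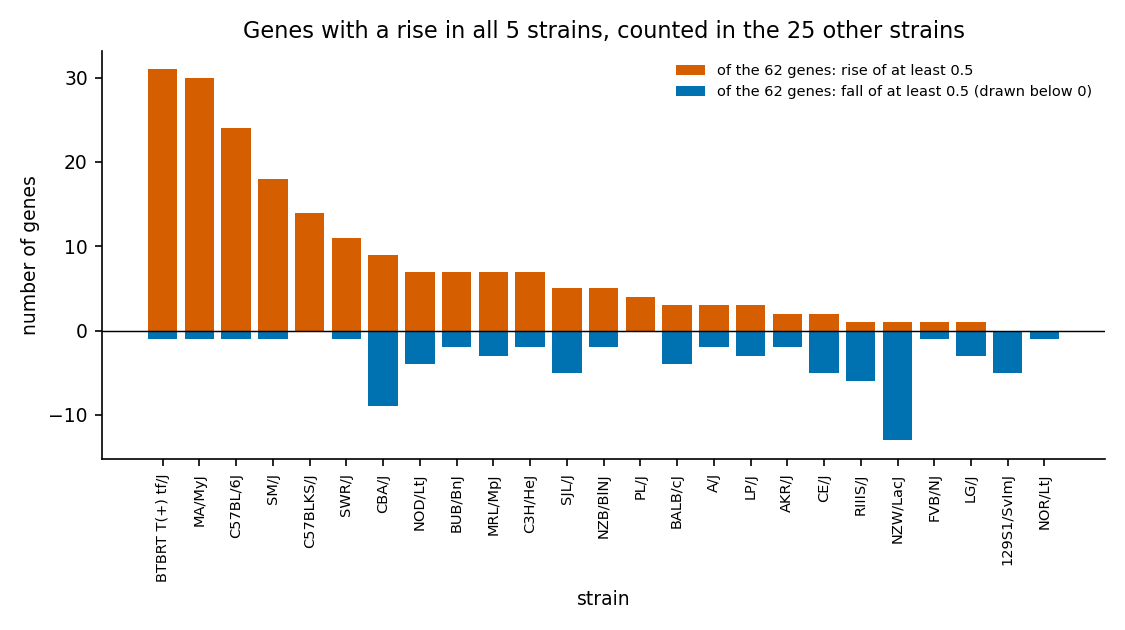
For each of the 25 other strains, the orange bar counts how many of the 62 genes were higher on fluoxetine by at least 0.5 log2, and the blue bar, drawn below 0, how many were lower by as much. The count is 31 in BTBRT T(+) tf/J and 30 in MA/MyJ, and the median strain has 5.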

How the data were processed

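Cortex RNA pooled from 3 mice was measured on 60 Affymetrix mouse arrays, 1 for each of 30 strains and 2 treatments. The authors deposited intensities computed by GCRMA, per the submitters' processing notes, which carry no version for it. This method subtracts a background that depends on probe sequence, so dim probe sets pile up at a floor of 2.07 log2 (27.8% to 29.4% of probe sets per array). Intensities were put on the log2 scale with no pseudocount and no renormalization. Of 45101 probe sets, 34945 had 1 gene symbol. The brightest probe set on average stood for each of 18193 genes, and 11886 genes with at least 4 log2 in at least 6 arrays were kept.

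Differences are fluoxetine minus water within a strain. The strain label pairs the 2 arrays, and each fluoxetine array of the 5 strains correlated best with its own strain's water array (0.519 to 0.727 after centring genes). The 25 other strains were fitted with limma 3.58.1 in R 4.3.3 (lmFit and eBayes, strain as block, two-sided, Benjamini-Hochberg over 11886 genes), a fit tested on simulated data. The number of arrays limits the precision. The p-values measure the difference against how much it varies from strain to strain, with array noise included.

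Named genes have a mean level of at least 6 log2 over the 10 arrays: the 12 largest rises and 12 largest falls in all 5 strains, up to 3 rises and 3 falls limited to 1 strain (at least 1 there, under 0.3 elsewhere), up to 6 of mixed direction, up to 4 per gene list and a fixed set of 20. Strains, members and the 33 gene lists were chosen with earlier results of these data known. The motifs and the alternatives for single genes were added after seeing the data. No genome build is named for the series, and promoter coordinates belong to the RefSeq table.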

Additional observations from a re-analysis of the deposited data

Results flagged for a closer look

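In 70 results, 40 named genes and 30 gene list medians, the 5 strain differences were searched for 1 strain far from the other 4, by the gap as a share of the range, and 3 were found. The cutoff is set to flag about 1 in 20 by chance. Many of the genes were picked by their differences in these 5 strains, and the results share arrays. Whether 3 is more than chance gives can therefore not be told. Pde7b was lower in P/J (-1.24) than in the other 4 strains (-0.78 to -0.66). Kcnh3 was least lowered in DBA/2J (-0.52), with the other 4 between -0.83 and -0.76. The median of the late activity-induced genes was lowest in I/LnJ (0.22), where the other strains stood at 0.60 to 0.74.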

How the results depend on the processing

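The same 5 strains ranked highest under every alternative tried for the rank (filters, normalization and probe set choice, added after seeing the data). The mean number of genes with a size of at least 1 per strain, 220.8, ranged from 171.8 to 251.5 with 1 strain left out. It was 277.0 with no filter and 161.8 both with a filter at log2 6 and with all probe sets averaged. The 75 genes that moved in all 5 depended on the size asked for: 188 at 0.3 (130 higher, 58 lower) and 16 at 1 (16 higher, 0 lower). Leaving out 1 strain gave 81 to 152, with 119 without I/LnJ and 152 without C57BR/cdJ, since fewer strains had to meet the rule. Averaging all probe sets of a gene gave 56, of which 54 were shared. The 28 genes of 1 strain became 80 with no filter, 18 with a filter at log2 6, 108 with under 0.5 in the other 4, and 41 to 50 with 1 strain left out. In the 25 other strains the 2 called genes became 1 with no filter, 1 after quantile normalization, 0 without the strain as a block (no pairing, 87 genes at an unadjusted p under 0.05), and 1 to 7 with 1 strain left out, 7 without CBA/J and 6 without LP/J. Fdft1 was called in 31 of 32 such fits, and 0 of the 75 genes in any. Of 399 alternative values for the mean difference of 40 named genes, 389 stayed within 1 SD, 8 moved further and 2 changed sign, these alternatives too being added after seeing the data: Egr1 (0.03) to -0.08 without C58/J, with a highest value of 0.14 without DBA/2J, and Htr2c (0.04) to -0.08 without P/J, with values up to 0.11 when 1 strain was left out (without C57BR/cdJ) and 0.13 over all probe sets. With 1 array per strain and treatment, a difference in 1 strain has no replicate check, and values under about 4 log2 lie near the floor, where differences are imprecise.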
